A study of Mus musculus with 8 samples.

Results

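The Fos and Jun AP-1 family comprised the 8 genes Fos, Fosb, Fosl1, Fosl2, Jun, Junb, Jund and Atf3, taken by symbol from the 20240 genes used. All 8 were listed in every library. The data were 8 oligo(dT)-selected RNA-seq libraries of whole mouse kidney, 2 in each of 4 groups, and all animals were of the C57BL/6 strain. The groups were kidneys with autosomal dominant polycystic kidney disease given flavopiridol (PKD_FP), such kidneys given the vehicle DMSO (PKD_DMSO), wild-type kidneys given flavopiridol (WT_FP) and wild-type kidneys given DMSO (WT_DMSO). Flavopiridol blocks cyclin-dependent kinases and is used against Cdk9, the kinase subunit of the elongation factor P-TEFb. The mutated gene, any Cre driver, the age, the dose, the time after dosing and whether animals were pooled are not stated in the labels. Nothing in these sources says that libraries with the same group name came from separate animals, so the p-values rest on the spread between libraries, which may be technical only.

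AP-1 is a dimeric transcription factor made of basic leucine zipper (bZIP) proteins. Jun proteins can pair with each other or with a Fos protein, whereas Fos proteins need a Jun partner to bind DNA well, and Atf3 is a stress-induced bZIP protein that can pair with Jun proteins. Fos, Fosb, Jun, Junb and Atf3 are classic immediate-early genes, whose transcripts appear soon after growth factors, stress or cAMP signalling and decay quickly. In the kidney, Fos, Jun and Atf3 are well known for their induction after tubular injury. Values were taken to be FPKM, a level per transcript length and library size. Comparisons of levels between genes rest on the authors' gene lengths, which are not stated.

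The depth, estimated from the steps of low FPKM values, was 14000000 to 18100000 reads or fragments per library. The marker lists of kidney segments were detected in all 8 libraries, with no marker at 0 throughout. The summed FPKM of 10 proximal tubule markers was 1703.4 to 4912.7 in the 4 PKD libraries and 21066.8 to 31781.7 in the 4 WT libraries, and 7 of the 10 were called lower in PKD_DMSO than in WT_DMSO. All 10 macrophage and myeloid markers were called higher there, with sums of 603.7 to 1165.1 FPKM in PKD and 66.9 to 123.5 FPKM in WT libraries. Replicate 2 of WT_FP stood apart in adipocyte genes, with 99.43 FPKM of Ucp1, against 0.17 to 7.34 FPKM in the other 7 libraries, and 47.34 FPKM of Adipoq, against 0.25 to 7.40 FPKM.

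All 8 AP-1 genes were higher in every PKD library than in every WT library, whichever treatment the mice had received. Atf3 and Fos had the widest gaps, since their lowest PKD value was 6.92 and 6.81 times their highest WT value. The gaps of the other 6 were 1.5-fold for Fosl2, 1.66-fold for Fosb, 2.07-fold for Jund, 2.24-fold for Jun, 2.84-fold for Junb and 3.67-fold for Fosl1. Such a separation of PKD above WT was present in 17.4% of all 20240 genes, which is the background for this count. None of the 7 members that could be tested differed detectably between flavopiridol and DMSO in either genotype. Of all 14391 genes tested, 0.0139% were called between these treatments in PKD and 0.0% in WT, which is the background for that count.

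**Figure D1:**
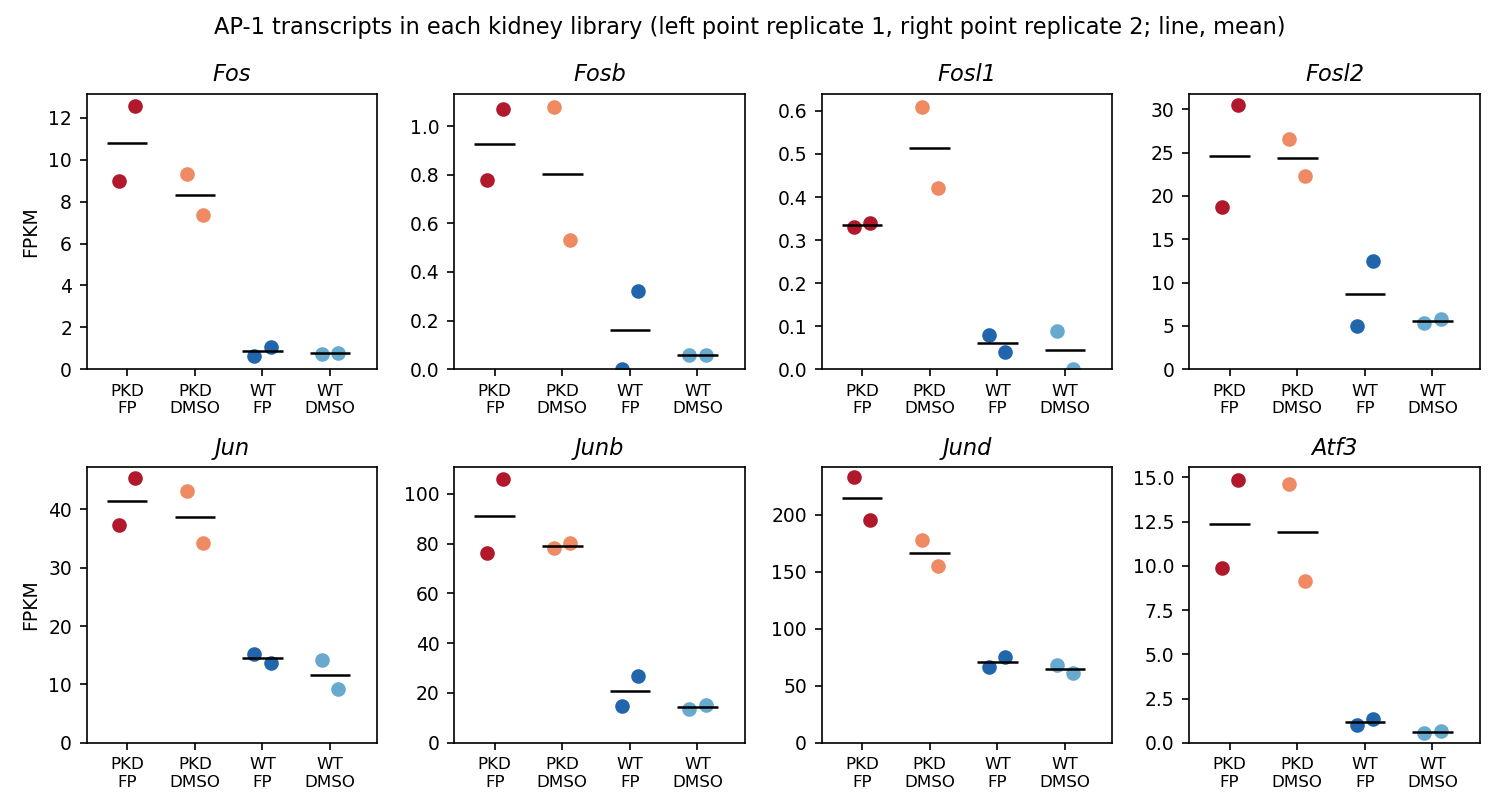
FPKM of each AP-1 gene (8 panels, each with its own linear axis from 0) in the 2 libraries of PKD_FP, PKD_DMSO, WT_FP and WT_DMSO. Points are libraries and short lines are group means. In all 8 panels the 4 PKD points lie above the 4 WT points, while FP and DMSO points of the same genotype mostly overlap. The FP points lie above the DMSO points without overlap for Jund in PKD and for Atf3 in WT. They lie below them for Fosl1 in PKD. WT_FP replicate 2 stands apart from the other WT points in the Fosl2, Fosb and Junb panels (12.50, 0.32 and 26.74 FPKM).

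The start regions of the 5 immediate-early members are shown first, because the study concerns cAMP signalling and a DNA element that responds to it can be read in them directly. The windows run from 250 bases before to 50 bases after the annotated start and come from RefSeq on GRCm38.p6, written 5′ to 3′ on the gene's own strand. They are chr12:85473640-85473939 (plus strand) for Fos, chr7:19309996-19310295 (minus) for Fosb, chr4:95052173-95052472 (minus) for Jun, chr8:84978699-84978998 (minus) for Junb and chr1:191183284-191183583 (minus) for Atf3. Capitals mark TGACG, the core of the cAMP response element, on either strand (CGTCA when it lies on the other strand), and TGACATCA, a variant element known from the Jun promoter to be bound by Jun and Atf2.
Fos: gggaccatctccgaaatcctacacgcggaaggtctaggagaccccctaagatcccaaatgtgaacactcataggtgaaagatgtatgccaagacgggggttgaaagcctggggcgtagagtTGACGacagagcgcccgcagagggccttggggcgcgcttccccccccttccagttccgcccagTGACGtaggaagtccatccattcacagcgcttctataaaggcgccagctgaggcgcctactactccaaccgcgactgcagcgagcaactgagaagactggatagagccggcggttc
Fosb: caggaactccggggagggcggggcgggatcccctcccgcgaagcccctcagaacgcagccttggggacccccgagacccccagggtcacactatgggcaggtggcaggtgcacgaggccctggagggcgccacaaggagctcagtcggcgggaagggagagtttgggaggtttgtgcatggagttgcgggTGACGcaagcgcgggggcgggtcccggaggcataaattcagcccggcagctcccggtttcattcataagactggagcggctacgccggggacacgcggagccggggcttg
Jun: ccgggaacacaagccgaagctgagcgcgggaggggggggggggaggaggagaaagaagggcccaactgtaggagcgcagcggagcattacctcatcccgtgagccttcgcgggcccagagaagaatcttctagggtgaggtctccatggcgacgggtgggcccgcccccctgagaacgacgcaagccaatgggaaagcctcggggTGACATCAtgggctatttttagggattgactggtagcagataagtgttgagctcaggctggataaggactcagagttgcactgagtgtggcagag
Junb: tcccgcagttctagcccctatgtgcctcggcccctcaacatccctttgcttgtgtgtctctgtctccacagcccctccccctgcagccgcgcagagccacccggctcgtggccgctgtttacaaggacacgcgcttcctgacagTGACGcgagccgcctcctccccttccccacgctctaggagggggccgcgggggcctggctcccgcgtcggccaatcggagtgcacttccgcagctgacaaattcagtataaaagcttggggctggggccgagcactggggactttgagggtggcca
Atf3: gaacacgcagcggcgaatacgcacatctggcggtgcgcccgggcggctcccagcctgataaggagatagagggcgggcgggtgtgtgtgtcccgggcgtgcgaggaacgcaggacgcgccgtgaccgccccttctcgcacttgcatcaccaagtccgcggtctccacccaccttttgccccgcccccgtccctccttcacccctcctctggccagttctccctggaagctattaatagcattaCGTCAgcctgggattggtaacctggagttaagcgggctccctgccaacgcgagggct

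TGACG was present in 4 of the 7 members that had a promoter window: 2 matches in Fos, with first bases at -129 and -66 from the start, and 1 match each in Fosb at -60, in Junb at -106 and in Atf3 at -7 on the opposite strand. Of all 32851 promoter windows, 20.8% held TGACG. TGACATCA was present in Jun at -45 and in 3.62% of all windows. The full palindromic element TGACGTCA, which contains TGACG, was in none of the 7 windows and in 1.79% of all windows. TGANTCA, the AP-1 site with any base in the middle, was in none of the 7 and in 7.81% of all, and the CArG box, the site of serum response factor, was in none of the 7 and in 1.63% of all. The letters TATAAA lay at -33 in Fos and at 1 in Junb, and in 13.6% of all windows. Positions are counted from the annotated starts, which were not checked with these data. These matches describe letters in a window of 300 bases and say nothing of what was bound there. Sites further from the start were not searched, so a motif missing here may lie outside the window.

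Among the genes of Fos proteins, the partners that need a Jun protein, Fosl2 (Fra-2) had the highest level. It was at 18.75 and 30.55 FPKM in PKD_FP and 26.52 and 22.25 FPKM in PKD_DMSO, against 4.97 and 12.50 FPKM in WT_FP and 5.35 and 5.83 FPKM in WT_DMSO. The PKD libraries were all above the WT libraries, and WT_FP replicate 2, the library with the adipocyte genes, came closest to them. Under vehicle Fosl2 rose by 1.94 ± 0.39 (log2 fold change of FPKM + 1, ± SE; adjusted p = 0.0184 in limma, n = 2 each). That call ended when any of the 4 compared libraries was left out, with adjusted p between 0.0627 and 0.0935 and fold changes of 1.82 to 2.06. Under flavopiridol the log2 fold change of PKD_FP over WT_FP was 1.48 ± 0.39 (adjusted p = 0.0528), with 3 of 16 alternatives calling it. It was 0.89 without WT_FP replicate 1 (adjusted p = 0.179) and 2.06 without WT_FP replicate 2 (adjusted p = 0.0248), so the size rests on which WT_FP library is used.

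Fos, the founding member, was at 9.01 and 12.57 FPKM in PKD_FP and 9.30 and 7.36 FPKM in PKD_DMSO, against 0.65 and 1.08 FPKM in WT_FP and 0.73 and 0.80 FPKM in WT_DMSO. The WT libraries all lay near 1 FPKM and the PKD libraries were several-fold above them. The ratio of mean FPKM was 12.5 for PKD_FP over WT_FP and 10.9 for PKD_DMSO over WT_DMSO. Fos rose by 2.65 ± 0.23 on the log2(FPKM + 1) scale under flavopiridol (limma adjusted p = 0.00410) and by 2.39 ± 0.23 under vehicle (adjusted p = 0.00217). Both calls held in all 16 alternative settings. The estimated number of reads or fragments behind Fos was 280.6 to 408.3 per PKD library and 20.9 to 31.8 per WT library.

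Fosb, an immediate-early relative of Fos that also gives the stable deltaFosB protein, was at 0.78 and 1.07 FPKM in PKD_FP and 1.08 and 0.53 FPKM in PKD_DMSO, against 0.00 and 0.32 FPKM in WT_FP and 0.06 and 0.06 FPKM in WT_DMSO. Every PKD value exceeded every WT value, yet the gap between 0.53 and 0.32 FPKM was narrow. Its log2 fold changes were 0.74 ± 0.25 in PKD_FP over WT_FP (adjusted p = 0.0987 in limma) and 0.75 ± 0.25 in PKD_DMSO over WT_DMSO (adjusted p = 0.0741). Neither passed the threshold of 0.05, and none of the 13 alternatives that tested the gene called it in either comparison. With a pseudocount of 0.1 in place of 1 the fold changes were 2.31 and 2.43, since the pseudocount of 1 is larger than most of these levels.

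Fosl1 (Fra-1), whose gene is itself a known AP-1 target in other tissues, was the lowest member in all 4 PKD libraries and lay with Fosb at the bottom in WT libraries. It was at 0.33 and 0.34 FPKM in PKD_FP and 0.61 and 0.42 FPKM in PKD_DMSO, against 0.08 and 0.04 FPKM in WT_FP and 0.09 and 0.00 FPKM in WT_DMSO. All PKD values were above all WT values, at an estimated 9.8 to 19.7 reads or fragments per PKD library and 0.0 to 2.3 per WT library. The gene did not pass the filter of 1 FPKM in 2 libraries. In a fit without that filter Fosl1 rose by 0.53 in PKD_DMSO over WT_DMSO (limma adjusted p = 0.0140) and had a log2 fold change of 0.33 in PKD_FP over WT_FP (adjusted p = 0.0602). In that unfiltered fit 9.18% of all genes were called higher under vehicle.

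Among the genes of Jun proteins, which can bind DNA with or without a Fos partner, Jund was the most abundant AP-1 transcript in all 8 libraries. It is the member usually found at a steady level in resting cells. Jund was at 233.48 and 195.97 FPKM in PKD_FP and 178.44 and 155.18 FPKM in PKD_DMSO, against 66.92 and 75.07 FPKM in WT_FP and 68.29 and 61.20 FPKM in WT_DMSO. The PKD libraries lay at least 2-fold above every WT library. Jund rose by 1.58 ± 0.17 under flavopiridol (log2 scale, limma adjusted p = 0.00581) and by 1.35 ± 0.17 under vehicle (adjusted p = 0.00451), among the most precise estimates in the family. Its increase was the smallest of the called members under vehicle.

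Junb, an immediate-early gene whose protein can restrain the growth-promoting activity of Jun, was at 76.06 and 106.17 FPKM in PKD_FP and 78.10 and 80.07 FPKM in PKD_DMSO, against 14.81 and 26.74 FPKM in WT_FP and 13.45 and 15.17 FPKM in WT_DMSO. The highest WT value was again in WT_FP replicate 2, and it was still far below the lowest PKD value. Junb rose by 2.12 ± 0.28 under flavopiridol (limma adjusted p = 0.0103) and by 2.39 ± 0.28 under vehicle (adjusted p = 0.00432). The call under flavopiridol ended without PKD_FP replicate 2, at a log2 fold change of 1.88 and an adjusted p of 0.0632.

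Jun, the partner that drives proliferation in many cells, was at 37.39 and 45.46 FPKM in PKD_FP and 43.18 and 34.28 FPKM in PKD_DMSO, against 15.27 and 13.69 FPKM in WT_FP and 14.24 and 9.15 FPKM in WT_DMSO. The PKD and WT libraries did not overlap. Jun rose by 1.45 ± 0.23 under flavopiridol (limma adjusted p = 0.0149) and by 1.67 ± 0.23 under vehicle (adjusted p = 0.00617). The call under flavopiridol ended without WT_FP replicate 1 (1.52, adjusted p = 0.0716), PKD_FP replicate 1 (1.59, adjusted p = 0.0575) or PKD_FP replicate 2 (1.31, adjusted p = 0.0876).

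Atf3, the stress-response partner, had the largest log2 fold change of the family under vehicle. It was at 9.88 and 14.87 FPKM in PKD_FP and 14.64 and 9.13 FPKM in PKD_DMSO, against 0.99 and 1.32 FPKM in WT_FP and 0.53 and 0.67 FPKM in WT_DMSO. The WT libraries all stayed below 2 FPKM, with the DMSO pair the lowest. Atf3 rose by 2.61 ± 0.28 under flavopiridol (limma adjusted p = 0.00609) and by 2.98 ± 0.28 under vehicle (adjusted p = 0.00211), and both calls held in all 16 alternatives. The ratio of mean FPKM was 10.7 for PKD_FP over WT_FP and 19.8 for PKD_DMSO over WT_DMSO, at an estimated 327.6 to 504.3 reads or fragments per PKD library and 14.7 to 36.6 per WT library.

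Under vehicle 6 of the 7 tested members were thus called higher in PKD kidneys and none lower, against a background of 14.8% of all 14391 genes called higher. Under flavopiridol the count was 5 of 7, against a background of 8.71%, and it was 3 without PKD_FP replicate 2, where 0.919% of all genes were called higher, and 6 without WT_FP replicate 2, where 4.54% were. The median log2 fold change of the tested members was 1.94 under vehicle and 1.58 under flavopiridol, and that of all genes was 0.12 and 0.07. Fos, Fosb and Atf3 passed the filter on low values only through their PKD libraries, so their counts here carry that selection. Median-of-ratios scaling moved the median of all genes under vehicle to -0.01 and the calls over all genes to 1524 higher and 1358 lower, where the unscaled values gave 2130 higher and 1082 lower. After this scaling the 6 members were still called higher, at log2 fold changes of 1.19 for Jund to 2.89 for Atf3.

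In whole-kidney RNA, fewer cells of a type and less RNA per cell cannot be told apart. The macrophage and fibroblast lists moved in the same direction as the AP-1 genes, and the proximal tubule list in the other. The summed FPKM of 10 fibroblast and myofibroblast markers was 661.5 to 1853.0 in PKD and 146.1 to 390.9 in WT libraries, with 4 of the 9 tested called higher under vehicle. Those of 8 neutrophil markers (6.2 to 71.9 FPKM in PKD and 3.8 to 5.7 FPKM in WT libraries, 0 of 4 tested called by limma) and of 6 smooth muscle markers (262.0 to 488.7 FPKM in PKD and 83.6 to 154.8 FPKM in WT libraries, 2 of 6 called higher) were also higher. The sums of 8 thick ascending limb and distal tubule markers (971.2 to 1336.7 FPKM in PKD and 1916.8 to 2454.0 FPKM in WT libraries, 5 of 8 called lower) and of 7 erythroid markers (202.9 to 971.4 FPKM in PKD and 1582.6 to 1841.4 FPKM in WT libraries, 5 of 5 tested called lower) were lower without overlap. No list had a marker at 0 in all libraries. The part of these cell types in the AP-1 levels was not tested.

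**Figure D2:**
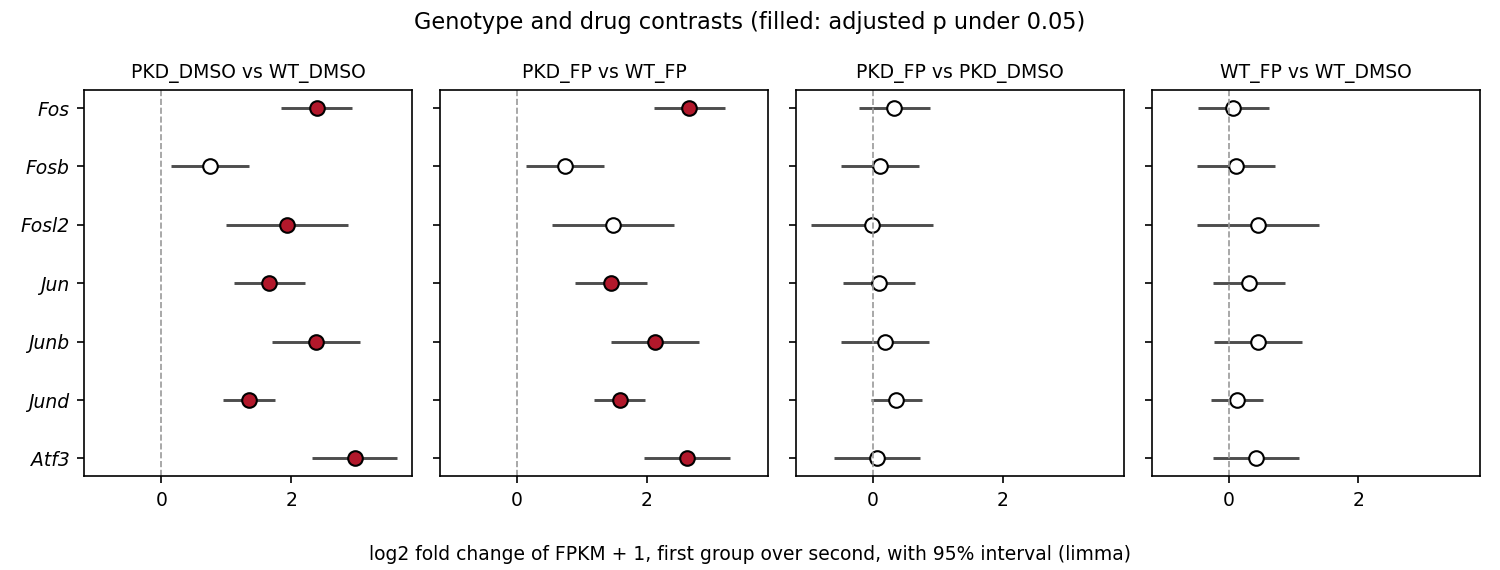
Log2 fold change of FPKM + 1 with its 95% confidence interval for the 7 tested AP-1 genes in 4 comparisons: PKD_DMSO over WT_DMSO, PKD_FP over WT_FP, PKD_FP over PKD_DMSO and WT_FP over WT_DMSO (limma). Filled points have an adjusted p under 0.05. There are 6 filled points in the first comparison and 5 in the second, all to the right of 0, and none in either flavopiridol comparison, where the points lie between -0.02 and 0.45.

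The comparison of PKD_FP with PKD_DMSO addressed whether an inhibitor of P-TEFb changed these transcripts in the diseased kidney, at a time after dosing that is not stated. None of the 7 tested members was called by limma, and none had an unadjusted p under 0.05, while 2804 of all genes had one and 0.0139% of all genes were called in either direction. The 95% confidence intervals of all 7 lay within 1 log2 unit of no change on the log2(FPKM + 1) scale. Fosb averaged 0.805 FPKM in PKD_DMSO, so on this scale even its full loss would stay within that bound. For Fosb the bound therefore sets no limit on a fall. Jund had the largest difference, 0.36 in PKD_FP over PKD_DMSO (95% interval -0.04 to 0.76, adjusted p = 0.293), followed by Fos with 0.33 (-0.22 to 0.87, adjusted p = 0.464). For Atf3 the difference was 0.06 (-0.60 to 0.72), for Jun 0.10 (-0.45 to 0.65), for Junb 0.18 (-0.50 to 0.86), for Fosb 0.11 (-0.49 to 0.70) and for Fosl2 -0.02 (-0.96 to 0.92). Their mean FPKM ratios of PKD_FP over PKD_DMSO lay between 1.01 for Fosl2 and 1.30 for Fos. Fosl1 averaged 0.34 ± 0.01 FPKM in PKD_FP and 0.52 ± 0.13 FPKM in PKD_DMSO (SD, n = 2 each), a log2 fold change of -0.18 in the unfiltered fit (adjusted p = 0.350).

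In WT kidneys flavopiridol likewise gave no call among the 7 members, and none had an unadjusted p under 0.05 in limma, while 183 of all genes had one and 0.0% were called. The log2 fold changes of WT_FP over WT_DMSO were all above 0, between 0.07 for Fos and 0.45 for both Fosl2 and Junb, with adjusted p = 1.0 for each. Their intervals reached from -0.49 to 1.39, and only 4 of the 7 lay within 1 log2 unit of no change. For the others the intervals did not exclude an increase of 2-fold on this scale. Fos and Fosb were among the 4, at only 0.765 and 0.06 FPKM in WT_DMSO. The pseudocount of 1 compresses changes at such levels, so a 2-fold change in FPKM was not excluded for them either. The Fosl2 difference was -0.14 without WT_FP replicate 2 and 1.04 without WT_FP replicate 1.

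The difference between the genotypes in their response to flavopiridol was tested as an interaction. Its values lay between -0.47 for Fosl2 and 0.26 for Fos, with limma adjusted p of 0.773 to 0.995. None of the 7 members had an unadjusted p under 0.05, against 1616 of all genes, and 0.0% of all genes were called. The intervals reached from -1.79 to 1.03, so the drug response of the family was not shown to differ between PKD and WT kidneys and was not measured finely enough to be called alike.

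The order of the levels was the same in all 4 PKD libraries: Jund, Junb, Jun, Fosl2, Atf3, Fos, Fosb and Fosl1, from highest to lowest. Jund was likewise the highest in all 4 WT libraries, and Fosl2 came next after the 3 Jun genes. Junb and Jun did not differ beyond their spread in WT_DMSO, at 14.3 ± 1.22 and 11.7 ± 3.6 FPKM (SD, n = 2), nor in WT_FP, at 20.8 ± 8.44 and 14.5 ± 1.12 FPKM. In PKD_DMSO they stood at 79.1 ± 1.39 and 38.7 ± 6.29 FPKM. Atf3 and Fos were neighbours in every library, with Atf3 above Fos in PKD_FP, PKD_DMSO and WT_FP and Fos above Atf3 in WT_DMSO. Their intervals of mean ± SD overlapped in PKD_FP (12.4 ± 3.53 and 10.8 ± 2.52 FPKM), PKD_DMSO (11.9 ± 3.9 and 8.33 ± 1.37 FPKM) and WT_FP (1.16 ± 0.233 and 0.865 ± 0.304 FPKM). Fosl2 also reached Jun in WT_FP within the spread, and Fosb and Fosl1 could not be ordered beyond it in PKD_DMSO, WT_FP and WT_DMSO.

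The family's summed level was 385.7 and 407.0 FPKM in PKD_FP and 351.9 and 309.2 FPKM in PKD_DMSO, against 103.7 and 130.8 FPKM in WT_FP and 102.7 and 92.9 FPKM in WT_DMSO. Jund contributed 60.5% and 48.1% of the sum in PKD_FP and 50.7% and 50.2% in PKD_DMSO, against 64.5% and 57.4% in WT_FP and 66.5% and 65.9% in WT_DMSO. Its share was lower in both PKD_DMSO libraries than in every WT library, but PKD_FP replicate 1 lay within the WT range.

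Fos contributed 2.34% and 3.09% in PKD_FP and 2.64% and 2.38% in PKD_DMSO, against 0.627% and 0.826% in WT_FP and 0.711% and 0.861% in WT_DMSO, so the groups did not overlap. The share of Atf3 was 2.56% and 3.65% in PKD_FP and 4.16% and 2.95% in PKD_DMSO, against 0.955% and 1.01% in WT_FP and 0.516% and 0.721% in WT_DMSO, again without overlap. Junb contributed 19.7% and 26.1% in PKD_FP and 22.2% and 25.9% in PKD_DMSO, against 14.3% and 20.4% in WT_FP and 13.1% and 16.3% in WT_DMSO. Here WT_FP replicate 2 reached the PKD range. The summed FPKM of the Fos genes (Fos, Fosb, Fosl1 and Fosl2) amounted to 8.32% and 12.8% of that of the Jun genes (Jun, Junb and Jund) in PKD_FP and 12.5% and 11.3% in PKD_DMSO, against 5.88% and 12.1% in WT_FP and 6.49% and 7.82% in WT_DMSO. These groups overlapped, and with 2 libraries a group an exact permutation test of a share cannot give a two-sided p below 0.33.

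**Figure D3:**
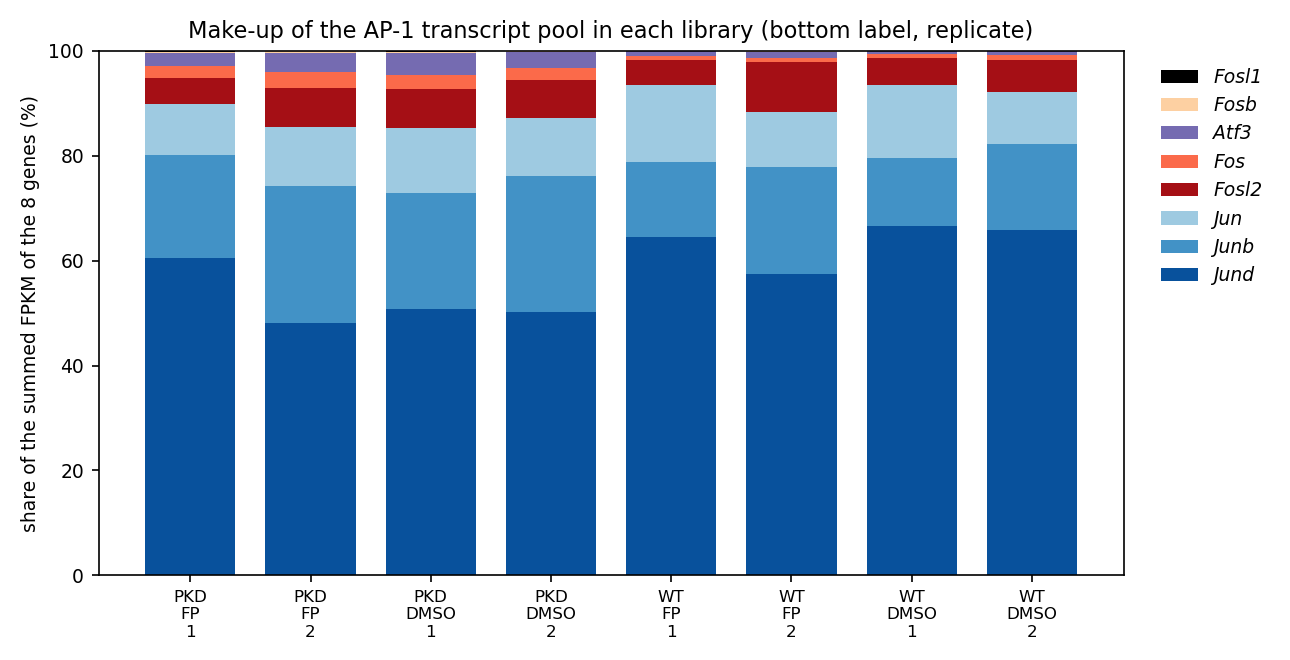
Share of each AP-1 gene in the family's summed FPKM (percent, stacked to 100) in each of the 8 libraries, ordered PKD_FP, PKD_DMSO, WT_FP, WT_DMSO. Jund takes 48.1% to 66.5% of the sum everywhere, and the shares of Fos and Atf3 are larger in all PKD libraries than in all WT libraries.

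Dimer partners and upstream regulators were described from 4 lists of genes, under vehicle first. Of the 27 tested other bZIP partners of AP-1, 13 were called higher and none lower in PKD_DMSO than in WT_DMSO, with a median log2 fold change of 0.64. The background for this and the next 3 counts is the 14.8% of all genes called higher, with a median of 0.12. Maff, a small Maf protein, was at 19.35 and 16.75 FPKM in PKD_FP and 25.05 and 21.81 FPKM in PKD_DMSO, against 1.92 and 4.74 FPKM in WT_FP and 2.16 and 1.51 FPKM in WT_DMSO. It rose by 3.11 ± 0.32 under vehicle (limma adjusted p = 0.00281). Creb5 rose by 1.52, Atf5 by 1.28, Nfil3 by 1.27, Nfe2l2 (Nrf2, the regulator of the antioxidant response) by 0.96 and Atf1 by 0.74. The count of 13 was smaller without any 1 library of WT_DMSO, PKD_DMSO or PKD_FP. In those fits fewer of all genes were called higher as well. The count was 8 after median-of-ratios scaling, with 10.6% of all genes called higher, and 8 without the low-value filter, with 9.18%. It was 7 with only the compared groups in the fit, with 8.76%.

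Of the 36 tested kinases, phosphatases and factors upstream of AP-1, 14 were called higher and 1 lower, with a median of 0.59. Among those with the smallest adjusted p, Mapk13 (p38 delta) rose by 1.71 and Map3k1, a kinase upstream of Jnk, by 1.72. Dusp5, Dusp8 and Dusp10, phosphatases that inactivate MAP kinases, rose by 1.79, 1.85 and 1.77, and Rps6ka3 by 1.08. The largest fold change of the list was that of another such phosphatase, Dusp4 (2.05 ± 0.30, limma adjusted p = 0.00717), which is named for its rank after its value was seen. Map2k6, a kinase that activates p38, was the gene called lower, at 3.51 and 3.31 FPKM in PKD_FP and 3.56 and 3.47 FPKM in PKD_DMSO, against 9.23 and 7.69 FPKM in WT_FP and 7.60 and 9.24 FPKM in WT_DMSO (log2 fold change -1.06 ± 0.17 under vehicle, limma adjusted p = 0.00925). It is named because it was the only such call. The count of 14 was smaller without PKD_DMSO replicate 1 or PKD_DMSO replicate 2, in fits where fewer of all genes were called higher as well.

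Of the 27 tested genes known as AP-1 targets, 15 were called higher and 1 lower, with a median of 1.44. Timp1, an inhibitor of matrix metalloproteinases, was at 61.78 and 116.91 FPKM in PKD_FP and 59.23 and 104.73 FPKM in PKD_DMSO, against 4.57 and 1.85 FPKM in WT_FP and 0.80 and 0.75 FPKM in WT_DMSO. It rose by 5.49 ± 0.44 under vehicle (limma adjusted p = 0.00162). Tnfrsf12a, the receptor of the cytokine Tweak, rose by 3.39, Spp1 (osteopontin) by 3.0, the chemokine Ccl2 by 2.89 and the growth factor Hbegf by 1.99. Vegfa, the angiogenic growth factor, was the gene called lower, with a log2 fold change of -1.07 ± 0.22 (adjusted p = 0.0199), and it is named for that. Macrophage and fibroblast markers moved with these genes, as given above, and their part was not tested.

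Of the 27 tested other immediate-early genes, 18 were called higher and none lower, with a median of 1.22. Socs3, a feedback inhibitor of cytokine signalling, rose by 3.90 ± 0.25 (limma adjusted p = 0.00125), Cyr61, a matricellular protein, by 3.26, Klf6 by 2.69, Egr2 by 2.60 and Myc by 2.53. Maff stands in this list as well. The count of 18 was smaller without WT_DMSO replicate 2, PKD_DMSO replicate 1 or PKD_DMSO replicate 2. In those fits fewer of all genes were called higher as well. These lists were chosen with results of these data known and are not independent evidence of a direction. Some of their genes passed the filter on low values only through PKD libraries, among them Creb5, Dusp5, Dusp8, Dusp10, Ccl2 and Egr2. Mmp13, of the targets, passed only through WT libraries. The counts and medians of each list, under vehicle and under flavopiridol, carry that selection.

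**Figure D4:**
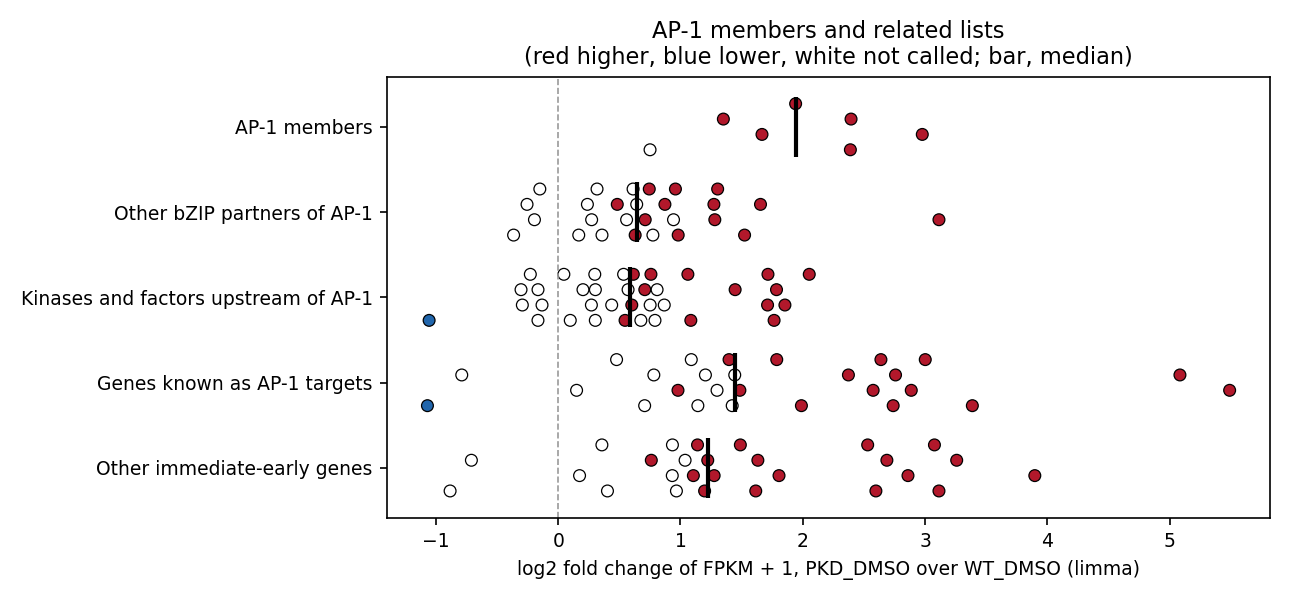
Log2 fold change of FPKM + 1 in PKD_DMSO over WT_DMSO (limma) for the tested AP-1 genes and the genes of 4 related lists. Each point is a gene, red when called higher, blue when called lower and white when not called, and the bar is the list's median. The medians are 1.94 for the AP-1 genes, 0.64 for other bZIP partners, 0.59 for upstream regulators, 1.44 for known targets and 1.22 for other immediate-early genes.

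Under flavopiridol the same lists had 7, 9, 16 and 15 genes called higher in PKD_FP than in WT_FP, with medians of 0.39, 0.31, 1.71 and 1.16, against 8.71% of all genes called higher and a median of 0.07. Called lower were Mapk14 (p38 alpha, log2 fold change -0.79), Map2k6 (-1.10) and Map3k5 (-0.63) of the upstream list and Vegfa (-1.11) of the targets, named because they were the only such calls. These counts were smaller by more than 1.5 times in several fits without a library: 0 to 4 for the bZIP partners, 1 to 4 for the upstream list, 7 to 9 for the targets and 3 to 9 for the immediate-early genes. The libraries concerned were PKD_FP replicates 1 and 2 and WT_FP replicate 1 in all 4 lists, WT_FP replicate 2 in the first and second, and PKD_DMSO replicates 1 and 2 in the first and last. In these fits 0.919% to 5.15% of all genes were called higher. With only the compared groups in the fit, 4 bZIP partners and 2 upstream genes were called, against 3.82% of all genes called higher. Without the low-value filter 4 bZIP partners were called, against 4.81%. In PKD_FP over PKD_DMSO limma called no gene of the 4 lists, with 4, 5, 2 and 1 genes at an unadjusted p under 0.05. In WT_FP over WT_DMSO it also called none, with 0, 0, 2 and 0 genes at that unadjusted level.

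The genes whose profile over the 8 libraries was most like that of each member were found by the root mean square distance between centred log2(FPKM + 1) values. Nearest to Fos were Runx1 (0.182), Myc (0.216) and Wnt10a (0.229), and nearest to Junb were Lilr4b (0.204), Runx1 (0.218) and Myc (0.233). Nearest to Atf3 were Gdf15 (0.199), Lif (0.221) and Dcdc2a (0.240). Jun lay closest to Nfkbie (0.129), Icam1 (0.150) and Tmem98 (0.152), Jund to Hn1 (0.124), Ywhah (0.125) and Flot1 (0.130), and Fosl2 to Tgif1 (0.178), Elf3 (0.186) and Rhou (0.225). Fosb, with its low values, lay closest to Phldb3 (0.0681), Klf16 (0.0891) and Fntb (0.0922). Between members, Jun and Jund (0.226) and Fos and Atf3 (0.227) had the smallest distances, and Fosb and Atf3 the largest (1.04). Low genes such as Fosb move little on the log2(FPKM + 1) scale, so these distances also reflect level. The ratio of mean FPKM of PKD_DMSO over WT_DMSO was 13.4 for Fosb and 19.8 for Atf3.

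The 8 genes lie on 7 chromosomes, with Junb (chr8:84976909-84978748, minus strand) and Jund (chr8:70697739-70700616, plus strand) on the same chromosome but not next to each other, in RefSeq on GRCm38.p6. The others are Fos (chr12:85473890-85477274, plus), Fosb (chr7:19302696-19310118, minus), Fosl1 (chr19:5447698-5455938, plus), Fosl2 (chr5:32136472-32157840, plus), Jun (chr4:95049036-95052222, minus) and Atf3 (chr1:191170296-191183333, minus). Annotated genes on the opposite strand overlap Fosl1 (Ccdc85b), Junb (Prdx2), Jun (Junos) and Jund (Gm11175), and Gm24748 overlaps Atf3. The labels do not state whether counting used the strand, so reads of these genes and their overlapping partners cannot be told apart where they overlap.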

How the data were processed

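Values were read from 8 tables, 1 per library, with gene symbols and FPKM rounded to 2 decimals as deposited by the authors. The file headers name no unit, and FPKM was inferred from the deposited values. The submitters' processing notes list mm10, Bowtie2 and DESeq2 but no versions and no roles, and the annotation, the gene lengths and whether reads or fragments were counted are not stated in the labels. Of 20245 entries, 4 with a duplicated symbol and 1 named by a dash were left out.

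FPKM are not counts, so log2(FPKM + 1) was fitted with limma 3.58.1 in R 4.3.3, with 1 mean for each of the 4 groups over all 8 libraries and moderated variances (options trend and robust). A gene was tested if 2 or more libraries had 1 FPKM or more, which held for 14391, and two-sided p-values were adjusted by Benjamini-Hochberg over all of these genes, with a threshold of 0.05. A fold change on this scale understates the change of low genes. The fit was tested on simulated data. No further scaling was applied. Alternatives were no filter, a minimum of 5 FPKM, a pseudocount of 0.1, a replicate block, only the compared groups, median-of-ratios scaling, quantile normalization, limma without trend and robust settings, and leaving out each library.

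Depth was estimated from the step between low FPKM values of single-transcript genes, chosen as the best fit to those values. Of the low values, 81.7% to 87.5% lay within 0.25 of a step from a whole number. Many would do so by chance and the step was fitted to them, so this share is no independent check. Estimated reads per gene also rest on GENCODE transcript lengths. These numbers cover no library preparation error. Promoter windows were read from RefSeq for 7 of the 8 members. Named genes were the members, up to 6 genes of each list with the smallest adjusted p under vehicle, and the 3 nearest profiles of each tested member, with predicted genes left out; 1 gene that this rule names is not reported here. Members, lists and tests were chosen with earlier results of these data known.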

Additional observations from a re-analysis of the deposited data

How the results depend on the processing

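In PKD_DMSO over WT_DMSO the number of AP-1 genes called higher was 6, and 6 with the replicate block. Atf3, Fos, Jun, Junb and Jund were called in all 16 alternatives, with adjusted p of 0.00193 to 0.0165, 0.0018 to 0.0186, 0.00557 to 0.0392, 0.00309 to 0.0395 and 0.00246 to 0.0330. Fosl2 was called in 12 of 16. In PKD_FP over WT_FP the number called was 5, with or without the replicate block, and 3 (without PKD_FP replicate 2) to 6 (without WT_FP replicate 2) when single libraries were left out. Fosl2 was called there with a minimum of 5 FPKM (1.48, adjusted p = 0.0472) and with quantile normalization (1.4, adjusted p = 0.0459).

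Differences near 0 changed sign. With quantile normalization they were -0.0051 for Fosb in PKD_FP over PKD_DMSO, -0.0587 for Fos and -0.017 for Fosb in WT_FP over WT_DMSO, and 0.0119 for Fosb in the interaction. Without single libraries, PKD_FP over PKD_DMSO ranged from -0.12 to 0.21 for Fosb, -0.36 to 0.32 for Fosl2, -0.065 to 0.26 for Jun, -0.0554 to 0.42 for Junb and -0.25 to 0.38 for Atf3. WT_FP over WT_DMSO ranged from -0.10 to 0.24 for Fos, -0.0841 to 0.32 for Fosb and -0.14 to 1.04 for Fosl2. The interaction ranged from -0.23 to 0.19 for Fosb, -1.05 to 0.12 for Fosl2, -0.51 to 0.0766 for Jun and -0.68 to 0.13 for Junb. No member was called in these 3 comparisons under any alternative run. In the main fit 0.0139% of all genes were called in PKD_FP over PKD_DMSO, and 0.0% in WT_FP over WT_DMSO and in the interaction. The cause of the changes of sign was not tested.

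The labels do not say what the replicate numbers stand for. Deviations from the group mean in same-numbered libraries had correlations of -0.52 to 0.48 over the 6 pairs of groups. With 2 libraries a group these deviations mirror each other, so they cannot tell whether the numbers mark pairs. The replicate block gave 8 bZIP partners in place of 13 under vehicle. Under flavopiridol it gave 3 in place of 7 bZIP partners and 9 in place of 15 immediate-early genes. With the block 9.99% of all genes were called higher under vehicle and 4.52% under flavopiridol, in place of 14.8% and 8.71%.

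A pseudocount of 0.1 moved Atf3 to 4.07 and Fos to 3.28 under vehicle. With 2 libraries a group the spread is poorly known, and the WT levels of Fosb and Fosl1 rest on few reads.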
